A study of Mus musculus with 24 samples.

Results

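Nerve injury was compared with sham surgery in the nucleus accumbens of mice that all carried a Mef2c vector: 6 injured and 6 sham libraries, 12 of the 24 bulk RNA sequencing libraries of the study, chosen by surgery and vector as the sample titles give them. Injured mice had the tibial form of spared nerve injury (SNI) on the left, at the sciatic nerve, and sham mice had the operation with the nerve left intact. Every mouse of both groups had AAV8-hSyn-Mef2c-Egfp injected into the accumbens on both sides, so that Mef2c was driven by the neuronal synapsin promoter in the controls too. The remaining 12 libraries are 6 SNI and 6 sham libraries with AAV8-hSyn-Egfp, called the Gfp groups here, and serve as the reference for the same surgery without added Mef2c. Mice were C57BL/6J or DBA/2J, 8 to 9 weeks old; the labels do not say which strain, how many animals or which sex a library holds, and p-values therefore reflect only how the deposited libraries vary. Tissue came from punches of both sides. The index at the end of each sample description runs in consecutive blocks by group, so that anything that followed this order and the surgery cannot be told apart.

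MEF2C is a transcription factor of the MADS-box family. Class IIa histone deacetylases hold it in a repressed state, and calcium entry releases it through the phosphatase calcineurin, so that MEF2 factors link neuronal activity to genes that limit the number of excitatory synapses. The nucleus accumbens, in the ventral striatum, weighs reward and aversion, and consists mainly of GABAergic medium spiny neurons that carry either the D1 or the D2 dopamine receptor. Its response to lasting pain is the subject of the series, whose title names MEF2C as a mediator of changes that persist after nerve injury.

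Assigned gene counts ranged from 25477019 to 35601890 per library in the SNI Mef2c group and from 28328510 to 33991197 in the Sham Mef2c group. Levels are given as CPM, the count of a gene relative to the size of its library after TMM scaling. Fold changes are log2 values from edgeR's quasi-likelihood fit, SNI minus sham. The Y-linked genes Eif2s3y, Kdm5d, Ddx3y and Uty were each above 26 CPM in all 12 libraries, and Xist was not among the genes tested. Of 23738 genes tested, 0 (0%) passed an adjusted p of 0.05 in edgeR's quasi-likelihood test. The smallest adjusted p was 0.2231, shared by 993 genes. At an unadjusted p under 0.05 the test gave 2018 genes higher after injury (8.5%) and 1798 lower (7.57%), of which 317 differed by more than 2-fold. The 6 SNI libraries were all above the 6 sham libraries for 95 genes (0.4%) and all below them for 165 (0.695%). DESeq2 called 4 of the 23738 genes entered (0.0169%), Mef2c, Hspa5, Mir670hg and H13, and limma-voom with quality weights called 0. For some genes described below, among them Gadd45b, Mavs and Nkx2-1, DESeq2 gave no adjusted p. All values below, other than the exact test on Mef2c and the DESeq2 calls, therefore describe differences that did not pass the test.

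Mef2c itself, the gene the vector carries (chromosome 13, 83504034 to 83667080, plus strand), was higher in the injured group. The SNI Mef2c libraries held between 474 and 832 CPM, with a median of 550.3, and the Sham Mef2c libraries between 123 and 469, with a median of 229. Every injured library lay above every sham library, although Sham Mef2c 1, at 469 CPM, nearly reached the lowest injured one, SNI Mef2c 2 at 474 CPM. The group means were 611 ± 146 CPM (SD, n = 6) and 243 ± 128 CPM (SD, n = 6). The difference of mean log2 CPM was 1.45, or 2.74-fold (two-sided exact permutation test, p = 0.00216, the smallest that reassigning the 12 libraries can give). edgeR's quasi-likelihood test, which estimates the spread from all 24 libraries, gave a log2 fold change of 1.33 (SE 0.25) with an adjusted p of 0.2231, while DESeq2 gave an adjusted p of 0.000797. Without Sham Mef2c 1, Mef2c passed in edgeR as well (log2 fold change 1.61, adjusted p = 0.006695). Without SNI Mef2c 1 and Sham Mef2c 2, 4 and 5, libraries whose tissue content differs as described below, the log2 fold change was 0.81 (edgeR's adjusted p = 1). Those sham libraries were also the lowest of their group in Mef2c, at 125, 210 and 123 CPM. With cortical and septal marker means as covariates the log2 fold change was 1.05 (adjusted p = 1). In both settings 0 of all genes tested passed, so these adjusted p-values are not particular to Mef2c.

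The Gfp groups give the level without added Mef2c: 168 ± 39.2 CPM (SD, n = 6) after injury and 169 ± 25.9 CPM (SD, n = 6) after sham surgery. Sham Mef2c 2 and 5, at 125 and 123 CPM, were below both of these means. The log2 fold change of surgery was -0.01 with the Gfp vector, and the difference between the effects with each vector was 1.34 (SE 0.35; edgeR's quasi-likelihood test, adjusted p = 0.3128, which did not pass). Transcripts from the vector and from the mouse gene are counted together and cannot be told apart. Both Mef2c groups thus received the same agent but did not hold the same Mef2c level, and every comparison of surgery below is also one of a higher with a lower Mef2c level.

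The other family members differed little. Mef2d, the other abundant MEF2 factor of neurons, averaged 329 CPM after injury and 286 CPM after sham surgery (log2 fold change 0.20, SE 0.08), and the 6 injured libraries spanned only 319 to 335 CPM against 233 to 324 for sham. The log2 fold change of Mef2a was 0.17 (SE 0.08), but its span overlaps the more abundant Lysmd4, so its counts are uncertain. Mef2b, at 14.0 and 15.3 CPM, differed by -0.13 on the log2 scale (SE 0.06).

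**Figure D1:**
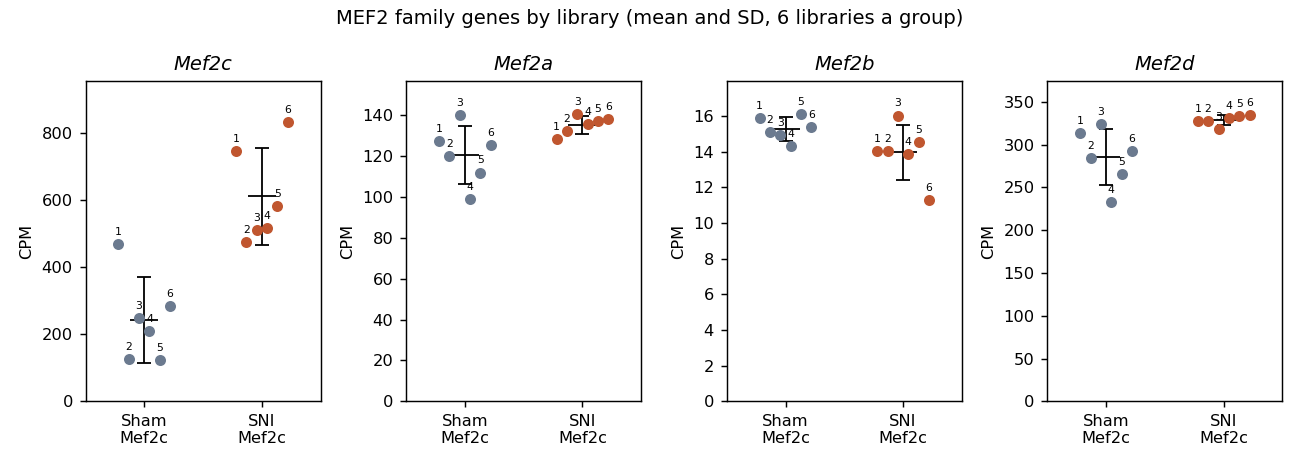
CPM of Mef2c, Mef2a, Mef2b and Mef2d in each Sham Mef2c and SNI Mef2c library; each point is a library marked with its replicate number, and bars give the mean and SD of 6 libraries. The groups do not overlap for Mef2c (123 to 469 against 474 to 832 CPM) and overlap for the other family members.

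The labelled tissue was checked against its markers. Transcripts of medium spiny neurons were abundant in every library: Ppp1r1b, which encodes the dopamine-regulated phosphatase inhibitor DARPP-32, was between 292 and 727 CPM in the 12 libraries. The content of neighbouring regions was not even, however. Slc17a7, the vesicular glutamate transporter of cortical neurons, stood at 1175 CPM in SNI Mef2c 1, at 228, 207 and 125 CPM in SNI Mef2c 4, 5 and 6, and at 10.6 and 4.10 CPM in SNI Mef2c 2 and 3. In the sham libraries it ran from 2.37 to 75.9 CPM. The mean log2 CPM of 18 cortical marker genes had the same order within the injured group, with 6.13 in SNI Mef2c 1 and 2.88 to 4.76 in the other injured libraries, against 2.92 to 4.37 in sham.

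SNI Mef2c 1 also had the lowest list means of striatal core, D1 and D2 neuron genes in its group. Not every member was lowest in that library: Eya1 of the D1 list was highest, at 24.4 CPM against 10.9 to 14.0. Drd1, the D1 dopamine receptor, was at 61.8 CPM there and between 236 and 296 CPM in the other 5 injured libraries, and Pdyn, the dynorphin precursor of D1 neurons, was at 16.5 CPM against 264 to 363. On the sham side, Sham Mef2c 2, 4 and 5 were low in striatal genes, with a mean over 20 striatal core markers of 7.84, 7.35 and 7.59 log2 CPM against 8.21 to 8.48 in the other 3. Zic1, a transcription factor gene of the septum, was at 95.5, 61.9 and 53.7 CPM in these libraries and at 27.7 to 44.1 CPM in the other 3. Gal, the neuropeptide galanin, was at 10.3 CPM in Sham Mef2c 4 and at most 1.73 CPM in the other sham libraries. On the first principal component of the 12 libraries (32.6% of the variance), SNI Mef2c 1 lay at 78.62, and Sham Mef2c 2, 4 and 5 at -31.88, -33.23 and -24.95.

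As gene lists, 18 of 18 cortical markers had a higher mean after injury with the Mef2c vector, 8 of them at an unadjusted p under 0.05 (8.5% of all genes tested), and the list median was 1.20 log2 against -0.0019 for all genes. All 20 striatal core genes were above 0 as well, 5 at an unadjusted p under 0.05, with a median of 0.39. Without SNI Mef2c 1 alone, 17 of the 20 striatal core genes were higher at that unadjusted p. So were 5 of 10 D1 and 5 of 9 D2 neuron genes, against 1 and 0 with that library. Lower at that p were 2 D1 and 0 D2 genes with all libraries, and 1 and 0 without SNI Mef2c 1. The cortical list without SNI Mef2c 1 had 1 higher member at that p and a median of 0.36. Over all genes, 1934 of 23962 were higher in that setting and 1806 lower. Rasd2, a striatal GTP-binding protein that acts on dopamine signalling, had 313 ± 43.4 CPM after injury and 198 ± 66.5 CPM after sham surgery (SD, n = 6). The 12 septal markers had a median of -0.40, with 2 lower and 0 higher at that unadjusted p (7.57% and 8.5% of all genes). Among 15 interneuron genes, 4 were lower at that threshold and 2 higher, beside the same shares, with a median of -0.38. Those that were lower include Nkx2-1 (5.50 against 12.5 CPM) and Lhx6 (36.7 against 75.2 CPM), the factors that specify interneurons and cholinergic neurons from the medial ganglionic eminence. Their log2 fold changes were -1.18 and -1.03, and -0.53 and -0.59 without SNI Mef2c 1 and Sham Mef2c 2, 4 and 5. The higher members, Vip and Cck, were highest in SNI Mef2c 1, at 31.7 and 145.5 CPM. In bulk tissue, fewer cells of a type and less RNA per cell cannot be told apart.

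Leaving out SNI Mef2c 1 and Sham Mef2c 2, 4 and 5, a choice made after their marker levels were seen, brought the cortical median to 0.12, the striatal core median to 0.18 and the septal median to 0.05. None of these 3 lists then had a member at an unadjusted p under 0.05, nor had the interneuron list (median -0.20), and over all genes 257 were higher and 504 lower of 24554 tested, 761 in all against 3816 with every library. With the cortical and septal means as covariates the count over all genes was 821. The 10 thalamic and hypothalamic markers did not move towards 0 without the 4 libraries. Their median was -0.307 with 1 lower at that p in the full set, and -0.355 with 2 lower without the 4. The sham libraries left out were also lowest in Mef2c, at 125, 210 and 123 CPM against 248 to 469 CPM in the rest. Every value without the 4 libraries thus changes tissue content and Mef2c level together, which cannot be told apart there. The uneven regional content moves with the surgery groups, and its part in the gene differences described below was not tested beyond these settings.

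**Figure D2:**
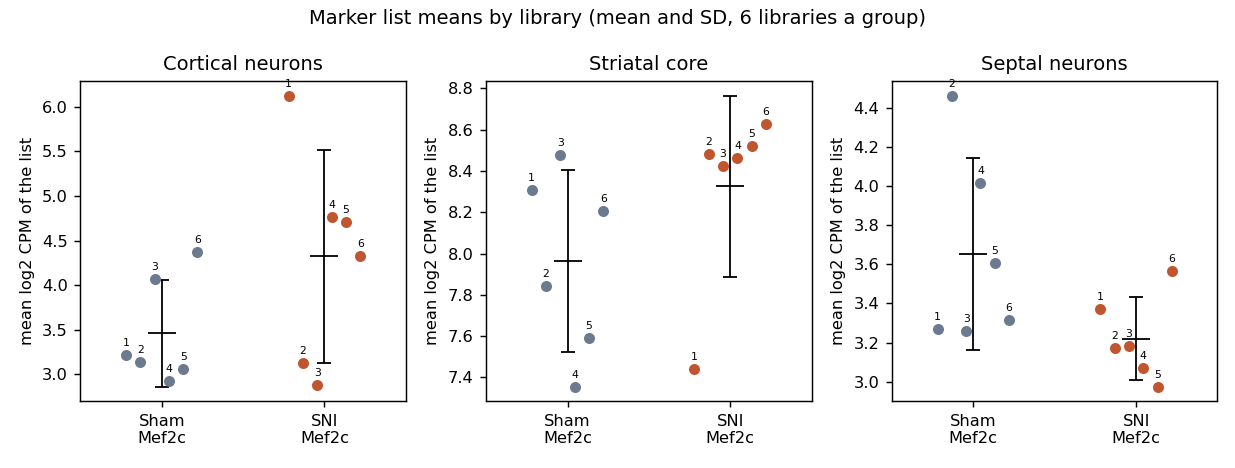
Mean log2 CPM of the cortical, striatal core and septal marker lists in each library of the Sham Mef2c and SNI Mef2c groups, with replicate numbers and the mean and SD of 6 libraries. SNI Mef2c 1 is highest for cortical markers (6.13) and lowest of its group for striatal markers (7.44), and Sham Mef2c 2, 4 and 5 are the lowest sham libraries for striatal markers.

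Chaperone genes of the endoplasmic reticulum (ER) were on the lower side in the injured libraries. These proteins fold secreted and membrane proteins in the ER lumen, and the unfolded protein response raises their genes together through the factors ATF6 and XBP1. Hspa5, which encodes the main ER chaperone BiP (chromosome 2, 34771970 to 34777547), was between 138 and 178 CPM in the SNI Mef2c libraries, with a median of 158, and between 180.1 and 233 CPM in the Sham Mef2c libraries, with a median of 192. All 6 injured libraries were below all 6 sham libraries. The log2 fold change was -0.31 (SE 0.07; unadjusted p = 0.000178, adjusted p = 0.2231 in edgeR's quasi-likelihood test), and DESeq2 called the gene with an adjusted p of 0.03672. With the Gfp vector the log2 fold change was -0.13, and the difference between the effects with each vector had an unadjusted p of 0.07498 in the same edgeR fit.

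Hyou1, an ER co-chaperone that serves as nucleotide exchange factor for BiP, was likewise lower in 6 of 6 injured libraries, at 102 to 116 CPM against 117 to 142 CPM (log2 fold change -0.20, SE 0.07). Hsp90b1, the ER member of the HSP90 family, averaged 179 ± 6.91 CPM against 209.7 ± 20.2 CPM (SD, n = 6), and its groups overlapped at a single sham library, Sham Mef2c 3 with 184 CPM. Pdia6, a protein disulfide isomerase, averaged 65.9 CPM against 73.6 CPM with a log2 fold change of -0.16 (SE 0.05). Within the list of 23 ER chaperone and stress genes, 10 were lower at an unadjusted p under 0.05 and 0 were higher (7.57% of all genes tested were lower at that threshold), and 2 were separate between the groups in the lower direction (0.695% of all genes). The other lower members were the chaperone and isomerase genes Pdia3, Calr and Dnajc3, the transcription factor gene Xbp1, and Chac1 and Sesn2, which belong to the ATF4 branch of the stress response. The list median was only -0.11, and it was -0.08 with the Gfp vector. Cytosolic heat shock genes had 1 of 14 members lower at that unadjusted p, with a median of -0.06.

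Without the 4 libraries of unlike tissue content, 3 of the 23 ER genes were lower at an unadjusted p under 0.05, where 504 of all 24554 genes were, and the median was -0.07. Hspa5 then had a log2 fold change of -0.21, Hsp90b1 of -0.14 and Pdia6 of -0.17, whereas Hyou1 had -0.10. With cortical and septal covariates Hspa5 was at -0.20 and the list had 2 lower members. The sign of Hspa5 was thus negative in each of these settings, at a smaller size.

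The promoters of ER chaperone genes are known for the ER stress response element, in which CCAAT and CCACG stand 9 bases apart (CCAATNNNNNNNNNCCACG), the sequence that NF-Y and ATF6 recognise. The sites are shown because Hspa5, Hsp90b1 and Pdia6, described above, carry them, whereas none was found for Hyou1. Within 250 bases before the RefSeq transcript starts (GRCm38.p6), either strand counted, the element stood in 7 of 21 promoters of the ER list (33.3%) and in 21 of 15894 promoters of all tested protein-coding genes (0.132%). Each site is given 5′ to 3′ on the strand that reads CCAAT first, with the fixed bases in capitals.
Hspa5 (chr2:34772025-34772043, plus strand): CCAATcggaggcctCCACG
Hsp90b1, distal (chr10:86705638-86705656, minus strand): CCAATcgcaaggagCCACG
Hsp90b1, proximal (chr10:86705533-86705551, plus strand): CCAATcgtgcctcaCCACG
Pdia6 (chr12:17266491-17266509, plus strand): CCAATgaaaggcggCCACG
Calr (chr8:84847075-84847093, plus strand): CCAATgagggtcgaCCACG
Dnajc3 (chr14:118937827-118937845, plus strand): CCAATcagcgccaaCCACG
Canx (chr11:50325800-50325818, minus strand): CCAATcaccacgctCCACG
Creld2 (chr15:88819520-88819538, minus strand): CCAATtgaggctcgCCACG

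The Hspa5 element begins 65 bases before the transcript start, and the Hsp90b1 elements begin 212 and 107 bases before it, the second in the opposite orientation. Of these 7 genes, Hspa5, Hsp90b1, Pdia6, Calr and Dnajc3 were among the 10 lower members of the list, and Canx and Creld2 were not. The whole window of Hspa5 (chr2:34771840-34772089, plus strand) is shown with its element in capitals, since it is the gene of the list with the smallest p.
Hspa5 promoter: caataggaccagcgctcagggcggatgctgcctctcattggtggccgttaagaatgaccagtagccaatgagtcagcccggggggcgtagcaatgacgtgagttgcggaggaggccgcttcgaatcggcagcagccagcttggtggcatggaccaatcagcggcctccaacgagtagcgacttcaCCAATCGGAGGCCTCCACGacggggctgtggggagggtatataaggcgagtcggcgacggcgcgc

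Among all genes lower at an unadjusted p under 0.05 the element stood in 6 of 1384 promoters (0.434%), and among those higher in 1 of 1528 (0.0654%). The element was searched for after the ER genes were seen to be lower, and with the ER list set aside it stood in 1 of 1375 promoters of the lower genes (0.0727%) and 14 of 15873 of all (0.0882%). A match is a description of the sequence and does not show that a factor was bound.

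**Figure D3:**
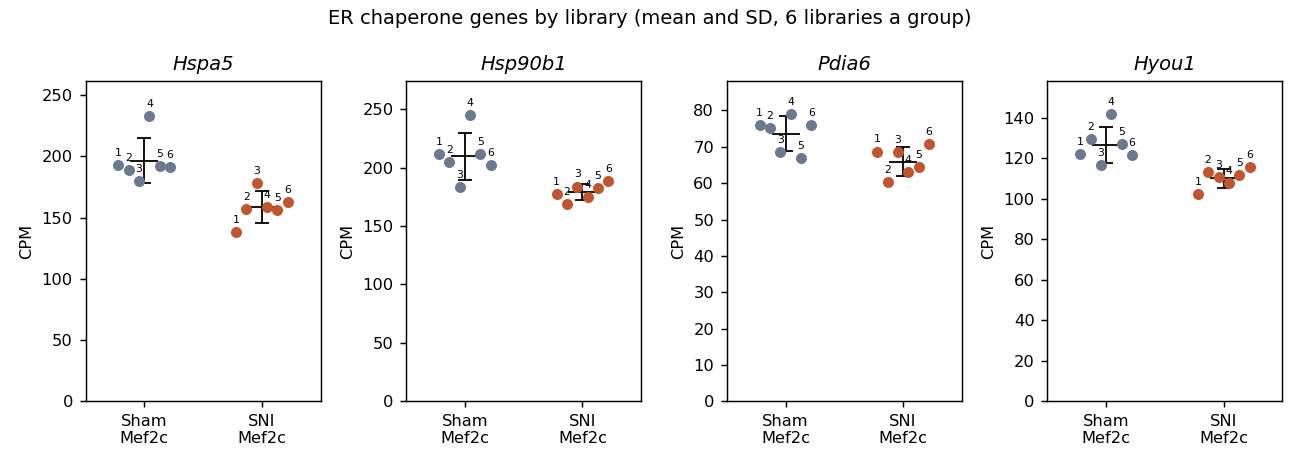
CPM of the ER chaperone genes Hspa5, Hsp90b1, Pdia6 and Hyou1 in each Sham Mef2c and SNI Mef2c library, with replicate numbers and the mean and SD of 6 libraries. For Hspa5 (138 to 178 against 180.1 to 233 CPM) and Hyou1 (102 to 116 against 117 to 142 CPM) the groups do not overlap.

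Genes reported as MEF2 targets at neuronal synapses lay mostly on the higher side after injury. Of 24 such genes, 9 were higher and 0 lower at an unadjusted p under 0.05 (8.5% of all genes were higher at that threshold), with a median of 0.23 log2; the median was 0.02 with the Gfp vector. Cdkn1a, which encodes the cell cycle inhibitor p21, was 15.9 to 19.02 CPM in the injured libraries and 9.41 to 15.2 CPM in sham, with no overlap (log2 fold change 0.55, SE 0.21, adjusted p = 0.2324 in edgeR's test). Gadd45b, a stress gene tied to DNA demethylation, averaged 10.3 ± 1.40 CPM against 6.99 ± 1.43 CPM (SD, n = 6). Kcna1, a voltage-gated potassium channel of axons, averaged 111 CPM against 79.3 CPM (log2 fold change 0.48, SE 0.14). Without the 4 libraries of unlike tissue content, the log2 fold change was 0.33 for Cdkn1a, 0.33 for Gadd45b (0.56 with all libraries) and 0.25 for Kcna1.

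Bdnf, the neurotrophin, reached 20.01 CPM in SNI Mef2c 1 and was between 1.15 and 4.24 CPM in the other injured libraries, a range like the 1.30 to 3.36 CPM of sham. Its log2 fold change was 1.31 with that library of high cortical content and 0.18 without it. Without the 4 libraries of unlike tissue content, 1 of the 24 target genes was higher at an unadjusted p under 0.05 and the median was 0.10; with cortical and septal covariates the values were 1 and 0.04. The differences between the effects with each vector were 0.94 for Cdkn1a (SE 0.30; unadjusted p = 0.004731 in edgeR's test) and 0.85 for Gadd45b (SE 0.27; unadjusted p = 0.004727), both with a log2 fold change below 0 in the Gfp groups (-0.39 and -0.29).

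The consensus MEF2 site stood in 1 of 30 promoter windows of these target genes (3.33%), that of Jun, and in 66 of 15894 of all tested protein-coding genes (0.415%), with 9 of 1528 (0.589%) among genes higher and 4 of 1384 (0.289%) among genes lower at an unadjusted p under 0.05. These windows cover 250 bases before the start alone.

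Of the genes that act on MEF2 itself, the calcineurin subunits were on the higher side. Ppp3cb, a catalytic subunit, averaged 291 ± 17.03 CPM after injury and 257 ± 15.4 CPM after sham surgery (SD, n = 6). Ppp3r1, the regulatory subunit, averaged 318 ± 20.6 CPM against 266 ± 33.0 CPM. Ep300, an acetyltransferase that MEF2 recruits as coactivator, was on the lower side, at 108 to 118.9 CPM against 118.6 to 125 CPM (log2 fold change -0.08, SE 0.03). The list of 18 cofactors had 4 higher and 1 lower at an unadjusted p under 0.05 (8.5% and 7.57% of all genes), with a median of 0.05, and 0 higher and 2 lower without the 4 libraries.

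Immediate early genes, which neuronal firing switches on within minutes, had 4 of 25 members higher and 0 lower at an unadjusted p under 0.05 (8.5% and 7.57% of all genes), with a median of 0.22. They were Ier5, Nptx2, Nr4a2 and Bdnf. Ier5 averaged 35.4 ± 8.28 CPM after injury and 22.8 ± 4.79 CPM after sham surgery (SD, n = 6), and Nptx2, a secreted pentraxin that clusters AMPA receptors, 29.6 ± 14.4 CPM against 18.3 ± 4.33 CPM. Nr4a2, an orphan nuclear receptor also present in deep cortical layers, was at 43.7 CPM in SNI Mef2c 1 and between 1.38 and 11.7 CPM in the other injured libraries. Without the 4 libraries the list had 0 higher and 1 lower at that threshold. In the Gfp groups the list median had the opposite sign, at -0.22.

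Genes of excitability and synaptic transmission differed in both directions. Among 27 potassium channel genes, 11 were higher and 2 lower at an unadjusted p under 0.05, with a median of 0.31; over all genes, 8.5% were higher and 7.57% lower. Kcnj4, an inward rectifier of medium spiny neurons, was 147 to 213 CPM after injury and 55.5 to 163 CPM in sham (log2 fold change 0.75, SE 0.25). Kcnq3, a subunit of the M-current channel, averaged 254 CPM against 202 CPM. Kcnb2, a delayed rectifier, was among the lower members, at 22.2 to 25.2 CPM in the injured libraries and 25.3 to 64.7 CPM in sham, with no overlap (-0.65, SE 0.24). Sham Mef2c 6, with 64.7 CPM, set the upper end.

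Of 24 sodium, calcium and HCN channel genes, 7 were higher and 1 lower at that threshold, beside the same 8.5% and 7.57% of all genes. Scn4b, a sodium channel beta subunit enriched in the striatum, averaged 561 ± 117 CPM after injury and 326 ± 151 CPM after sham surgery (SD, n = 6). Of 31 glutamate receptor and scaffold genes, 8 were higher and 2 lower (8.5% and 7.57% of all genes), with a median of 0.16. Grik5, a kainate receptor subunit, had 342 ± 21.3 CPM against 274 ± 40.9 CPM, and Dlgap3, a postsynaptic scaffold of striatal synapses, 387 ± 34.2 CPM against 294 ± 57.4 CPM (SD, n = 6). Without the 4 libraries, the potassium channel list had 0 higher and 2 lower, the sodium, calcium and HCN list 0 of either, and the glutamate list 0 of either with a median of -0.05.

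The GABA list went the other way, with 2 of 21 members higher and 5 lower at an unadjusted p under 0.05 (8.5% and 7.57% of all genes) and a median of -0.21. Slc6a11, the GABA transporter GAT-3 of astrocytes, was 166 to 198 CPM in the injured libraries and 202 to 538 CPM in sham, with no overlap (log2 fold change -0.87, SE 0.32). The highest sham values, 538 and 441 CPM, were those of Sham Mef2c 4 and 5. Gabrb1, a GABA-A receptor subunit, averaged 219 CPM against 253 CPM, and Gabre, a subunit of low level, 1.16 ± 0.553 CPM against 4.95 ± 4.03 CPM (SD, n = 6). Gabrd, the delta subunit of tonic inhibition, was on the other side, with 101 ± 13.5 CPM against 67.3 ± 23.4 CPM (SD, n = 6). Without the 4 libraries the list had 0 higher and 2 lower and a median of -0.11, and Slc6a11 a log2 fold change of -0.40.

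Opioid signalling relays reward and pain relief in the accumbens, and its genes were listed together with other striatal peptides, 14 members in all. At an unadjusted p under 0.05, 2 were higher and 4 lower (8.5% and 7.57% of all genes). The higher members were Oprd1 and Cck, and the lower ones Oprm1, Oprl1, Pnoc and Crh. Of these, Cck and Crh are among the other peptides. Without the 4 libraries 0 of either remained, and the median was 0.13 instead of 0.27. Oprm1, the mu opioid receptor, was 61.7 to 82.9 CPM after injury and 64.9 to 109 CPM after sham surgery (log2 fold change -0.33, SE 0.12, and -0.17 without the 4 libraries), and Sham Mef2c 3 was the sham library that overlapped the injured range. The peptide precursors Penk and Pdyn had medians of 754 and 304 CPM in the injured group and 604 and 209 CPM in sham. The ranges of both genes overlapped, and SNI Mef2c 1 held the lowest value of each among the 12 libraries, with 225 CPM of Penk and 16.5 CPM of Pdyn. Drd2, the D2 receptor, had a median of 140.3 CPM against 105.5 CPM.

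**Figure D4:**
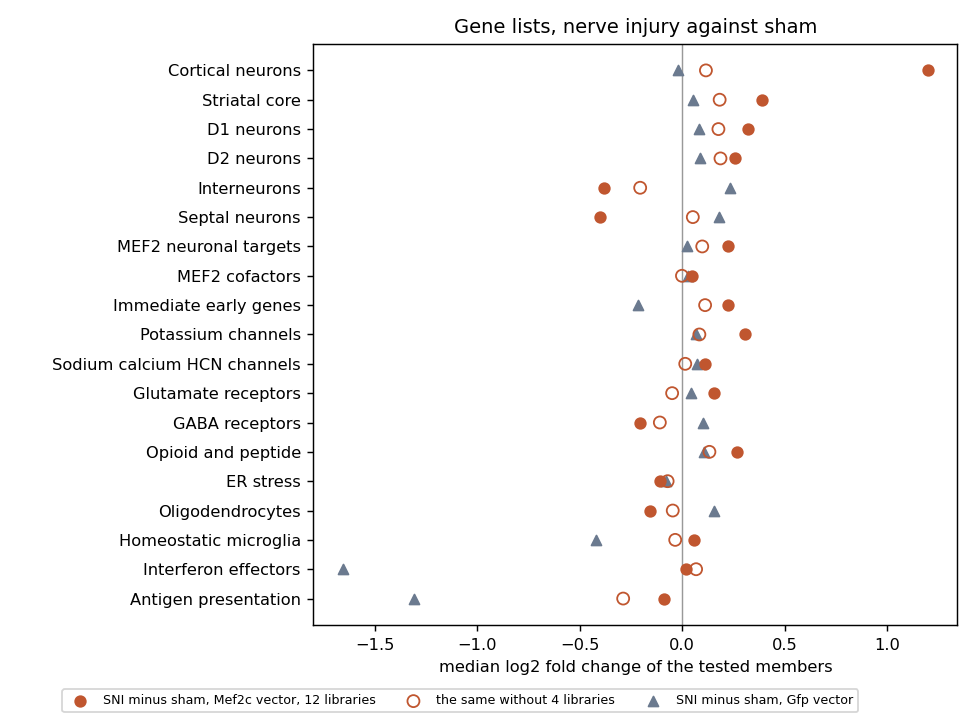
Median log2 fold change, SNI minus sham, over the tested members of 19 gene lists. Filled circles give the Mef2c vector groups with 12 libraries, open circles the same without the 4 libraries of unlike tissue content, and triangles the Gfp vector groups. The cortical median is 1.20 with 12 libraries and 0.12 without the 4, and the interferon median is 0.02 with the Mef2c vector and -1.66 with the Gfp vector.

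The single genes with the smallest p-values after Mef2c came from several pathways. Among the 20 smallest p-values, 8 were higher and 12 lower, 4 are predicted genes or pseudogenes, and 5 overlap a more abundant gene. H13, the signal peptide peptidase of the ER membrane, was 85.4 to 95.9 CPM in injured libraries and 96.5 to 113 CPM in sham. N4bp2l1 was 77.1 to 90.9 CPM against 92.4 to 102 CPM, and Mir670hg, a long noncoding host transcript, was 13.9 to 18.9 CPM against 20.2 to 23.2 CPM. In each of these 3 the groups did not overlap, at log2 fold changes of -0.19, -0.22 and -0.32, which were -0.11, -0.18 and -0.27 without the 4 libraries. DESeq2 called H13 and Mir670hg, each with an adjusted p of 0.03672.

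Lin7b, a scaffold of the Crumbs and synaptic CASK complexes, was the higher counterpart, with 33.8 to 47.5 CPM in injured libraries and 24.9 to 32.7 CPM in sham and no overlap (log2 fold change 0.42, SE 0.10, and 0.24 without the 4 libraries). Ndufa1, a subunit of respiratory complex I, averaged 31.4 CPM against 26.2 CPM, Vps52, a subunit of the GARP tethering complex, 92.9 CPM against 83.3 CPM, and Klhl23 81.3 CPM against 65.7 CPM. Without the 4 libraries, the log2 fold change of Vps52 went from 0.16 to 0.07 and that of Klhl23 from 0.31 to 0.17. Mavs, the mitochondrial adaptor that carries the signal of cytosolic RNA sensors towards interferon, averaged 7.65 ± 0.702 CPM against 10.4 ± 1.64 CPM (SD, n = 6), a log2 fold change of -0.45 that was -0.23 without the 4 libraries. Zmym1, at 26.9 against 34.3 CPM, overlaps the more abundant Gm12940, and Iqcj the more abundant Iqschfp, so both are uncertain.

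The remaining named genes of that rank were low in level and had larger fold changes. Fut4, a fucosyltransferase, was at most 0.722 CPM in injured libraries and at least 0.733 CPM in sham (log2 fold change -1.38, SE 0.34). Sytl4, a Rab27 effector of secretory granules, was 0.407 to 1.24 CPM against 1.33 to 9.74 CPM, with the highest values in Sham Mef2c 4, 2 and 5, and its log2 fold change of -2.15 was -0.71 without the 4 libraries. Ghsr, the ghrelin receptor, was at most 0.211 CPM against at least 0.255 CPM. Kcnk15, a potassium channel gene of the tandem-pore family, was at 6.84, 2.44 and 1.60 CPM in SNI Mef2c 1, 4 and 5 and at most 0.128 CPM in the 9 other libraries of both groups, and SNI Mef2c 2 held 0 CPM.

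Interferon genes were low in both Mef2c groups. Type I interferon effectors restrict viral replication, and they are raised by STAT and IRF factors. The mean log2 CPM over 37 effector genes was 1.58 ± 0.246 (SD, n = 6) in SNI Mef2c and 1.55 ± 0.152 in Sham Mef2c, with ranges of 1.32 to 1.97 and 1.37 to 1.78. None of the 37 genes had an unadjusted p under 0.05 in either direction, and the median log2 fold change was 0.02 (0.07 without the 4 libraries, again with 0 genes). Irf7, a factor that amplifies interferon output, was 1.39 to 2.85 CPM in injured and 1.15 to 1.84 CPM in sham libraries, although its span overlaps the more abundant Phrf1. The 22 antigen presentation genes had 0 members at that threshold and a median of -0.09.

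With the Gfp vector the interferon list stood higher and differed between surgeries, at 5.13 log2 CPM in Sham Gfp and 2.86 in SNI Gfp, and the SNI Gfp libraries spread from 1.50 to 5.08. The test of the surgery effect between vectors, over all 24 libraries, called 0 of 23738 genes (0%) in edgeR's quasi-likelihood test, with 3529 genes at an unadjusted p under 0.05; DESeq2 called 1 gene and limma-voom with quality weights 4074. Without SNI Gfp 6, one of the injured Gfp libraries of high interferon level, edgeR called 269 genes, 260 of them higher. For Irf7 the difference between the effects was 2.36, with an unadjusted p of 0.009877 in edgeR's test on all libraries. Its log2 fold change of surgery was -2.06 with the Gfp vector and 0.31 with the Mef2c vector.

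**Figure D5:**
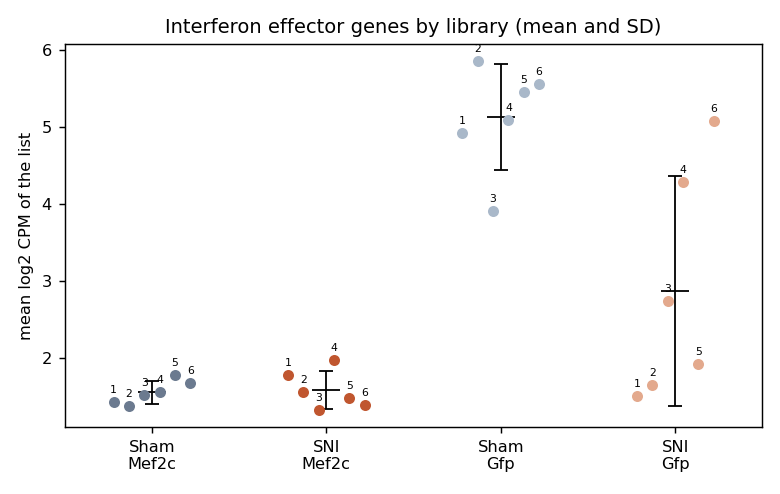
Mean log2 CPM over 37 interferon effector genes in each of the 24 libraries, by group, with replicate numbers and the mean and SD of 6 libraries. All 12 Mef2c vector libraries lie between 1.32 and 1.97, and the Sham Gfp libraries lie between 3.91 and 5.85.

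Lists of other cells were tested in the same way. Over all genes, 8.5% were higher and 7.57% lower at an unadjusted p under 0.05. Without the 4 libraries, 257 of 24554 genes were higher and 504 lower. Homeostatic microglia had 0 of 18 members higher and 1 lower at an unadjusted p under 0.05, with a median of 0.06, and the same counts with a median of -0.03 without the 4 libraries. T cell markers had list means between -1.55 and -1.13 log2 CPM in the 12 libraries, but single members were higher, among them Cd4 with 8.70 to 35.5 CPM, Gzmk with 2.60 to 14.5 CPM and Zap70 with 1.32 to 3.82 CPM; 1 of 20 members was higher and 0 lower at an unadjusted p under 0.05. Reactive astrocyte genes had 0 of 16 at that threshold. The 18 oligodendrocyte genes were all below 0, with a median of -0.16, and 1 of them at an unadjusted p under 0.05; without the 4 libraries their median was -0.05. Oligodendrocyte precursor markers had 3 of 11 lower, with a median of -0.19, and 0 without the 4 libraries. The 13 genes of the mitochondrial genome were all above 0, with a median of 0.14 and 1 of them higher at an unadjusted p under 0.05; without the 4 libraries these values were 0.08 and 0.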

How the data were processed

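Poly(A) RNA libraries of nucleus accumbens punches were prepared with a stranded mRNA kit, per the labels' protocols. Raw gene counts of all 24 libraries, deposited by the authors in 1 table, were made with featureCounts on mm10 per the submitters' processing notes; its version is not given. They also deposited FPKM values, which were used only for checks: the FPKM of a gene equalled its count over total and 1 fixed length, the whole gene span for 42625 of 42625 genes compared. In 1300 of 1300 nested pairs on opposite strands the outer gene had at least the count of the inner gene. The counts thus cover introns and do not separate strands, and genes that overlap a more abundant gene are given as uncertain. Of 55401 gene IDs, 55141 matched GENCODE M21 without the version suffix.

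The deposited counts were tested with edgeR 4.0.16 (R 4.3.3; filterByExpr, TMM scaling, robust quasi-likelihood F test, 1 coefficient per group over all 24 libraries, 20 residual degrees of freedom), with Benjamini-Hochberg adjustment over all 23738 genes and a threshold of 0.05. DESeq2 1.42.0 and limma-voom 3.58.1 were alternatives, with other scalings, filters, covariates and left-out libraries. The edgeR steps were tested on simulated data. The Mef2c level was tested with an exact permutation test of log2 CPM with a prior count of 2. No pair of libraries within a group agreed within sampling noise (smallest chi-square per degree of freedom 3.222 over 30 pairs).

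The compared groups and the 48 gene lists were chosen with earlier results of these data known. The genes named were the MEF2 family, the 20 smallest p-values, since fewer than 5 genes passed, and up to 4 members of a list by p. Drd1, Ppp1r1b, Slc17a7, Pdyn, Kcnb2, Gabrd, Irf7, Cd4, Gzmk and Zap70 were added as markers or after their values were seen. So were the names of list members given without values. The rule names Cd4, Gzmk and Zap70 as well. Promoter sequences are RefSeq's (GRCm38.p6); 12512 of 16328 tested protein-coding genes had one. Since 0 genes passed, motif shares are given for genes at an unadjusted p under 0.05, and the ER stress response element was added after the values were seen. The cAMP response element (TGACGTCA) stood in 2.03% of promoters of genes higher at that p, 2.53% of those lower and 2.3% of all, and the serum response element in 1.64%, 1.23% and 1.2%. A few genes that the rule would name are not reported here.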

Additional observations from a re-analysis of the deposited data

Results flagged for a closer look

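Within a group of 6 libraries, a library was singled out where its gap to the nearest other library as a share of the group's range exceeded Dixon's 95% critical value. Chance alone does so for about 1 in 20 groups of independent, normally distributed values. That rate is no fair reference here, since the values are not independent and some genes were added as markers or after their values were seen. In all, 13 of 96 list means and 20 of 112 gene values were singled out.

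Most of them belonged to SNI Mef2c 1. It was lowest of its group in the list means of D1 neurons (4.952 log2 CPM), D2 neurons (4.891), striatal core genes (7.439), GABA receptors (6.903) and synaptic adhesion (6.561), and highest in those of endocannabinoid genes (6.685), endothelium (4.683) and homeostatic astrocytes (7.69). Among genes it was lowest for Drd1 (61.81 CPM), Drd2 (54.54 CPM), Ppp1r1b (315.5 CPM), Pdyn (16.54 CPM), Penk (224.8 CPM) and Mir670hg (13.94 CPM). It was highest for Slc17a7 (1175 CPM), Emx1 (21.48 CPM), Bdnf (20.01 CPM), Nr4a2 (43.66 CPM), Nptx2 (57.9 CPM), Lin7b (47.53 CPM) and Kcnk15 (6.838 CPM).

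Sham Mef2c 6 was highest of its group in the list means of B cells (0.489), homeostatic microglia (4.463) and synaptic adhesion (6.97), and for Iqcj (1.621 CPM). Sham Mef2c 4 was highest for Hspa5 (233 CPM), Ghsr (1.743 CPM) and Gal (10.26 CPM). The p53 and DNA damage list mean was highest in Sham Mef2c 1 (4.529), and the choroid and ependyma mean in SNI Mef2c 3 (2.266). Single values that stood apart were Ndufa1 in Sham Mef2c 3 (29.77 CPM), Kcnk15 in Sham Mef2c 2 (0.1276 CPM) and Zic1 in SNI Mef2c 6 (55.48 CPM). No cause was tested.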

How the results depend on the processing

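edgeR called 0 genes between SNI and sham with the Mef2c vector, and 0 to 1 when each library was left out in turn (1, Mef2c, without Sham Mef2c 1); DESeq2 called 4. At an unadjusted p under 0.05 the count of 3816 became 1509 with the cortical mean as covariate, 821 with cortical and septal means, 1826 without the 2 sham libraries of low Mef2c (2 and 5), 761 without the 4 libraries of unlike tissue content, and 2378 (without Sham Mef2c 4) to 4879 with 1 library left out; leaving out libraries also lowers the sample number. For the difference between vectors, the 0 calls became 1 in DESeq2, 4074 in limma-voom and 0 to 269 with 1 library left out. Its 3529 genes at an unadjusted p under 0.05 became 8427 in limma-voom, 1395 and 1372 with the covariates, 1374 without the 4 and 2214 without the 2 libraries, and 2353 to 5632 with 1 library left out. The cause of these shifts was not tested, and the 4 libraries include the sham libraries of lowest Mef2c (2, 4 and 5). Of 56 genes followed across the settings, a part of those described, 49 kept their sign in every setting. The sign turned with the cortical covariate for Bdnf (-0.2764) and Nr4a2 (-0.1739), with the striatal covariate for Drd1 (-0.1826), Drd2 (-0.0226), Pdyn (-0.4976) and Penk (-0.121), and for Zic1 with both covariates (0.0374) and without the 4 libraries (0.0869). The covariates are themselves means of expressed genes.

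No pairing of the libraries by replicate number was seen: deviations of same-numbered libraries correlated between -0.294 and 0.025, and 0 of 12 libraries correlated best with their own number. A pairing weaker than the uneven regional content could go unseen in this check, which covers all genes at once. With the replicate block 3056 genes had an unadjusted p under 0.05 and 0 passed, the count between vectors was 2871, and the Mef2c difference of 1.45 had an exact sign-flip p of 0.03125, the smallest that 64 assignments can give. Genes under about 1 CPM, such as Kcnk15, Ghsr and Fut4, rest on few counts per library.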
